A study of Homo sapiens with 4 samples.

Results

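Interferon-stimulated genes and interferon regulatory factors (IRFs) were examined as a module of 43 genes, chosen by name and found by Ensembl identifier among the 64252 genes of the count table. The module holds 4 interferon receptor chains, 6 transcription factors (5 IRFs and STAT2), 3 nucleic acid sensors, 11 effectors that act on RNA, 3 GTPases, 4 membrane effectors, 6 genes of the ISG15 and ubiquitin system and 6 other interferon-induced genes. The libraries were labelled as NB4, a cell line derived from acute promyelocytic leukemia, a subtype of acute myeloid leukemia (AML). Cells were treated for 24 h with 8 μM dBET1 or with the same volume of its solvent DMSO, with 2 libraries in each group. dBET1 is a PROTAC (a small molecule that recruits a ubiquitin ligase to its target) that binds the BET bromodomain proteins and brings them to cereblon for degradation. No interferon or other agent was named in the labels, and the comparison asks which of these genes were expressed in DMSO and how each changed with dBET1. A single cell line, a single dose and a single time were profiled, and the sources do not state whether the 2 libraries of a group came from separate cultures, so p-values measure only the spread between these libraries.

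Interferons are cytokines that cells release on sensing viral nucleic acid. Type I interferons bind IFNAR1 and IFNAR2, interferon gamma binds IFNGR1 and IFNGR2, and both act through JAK kinases and STAT proteins. STAT2 and IRF9 are parts of the complex ISGF3, which binds a DNA sequence called the interferon-stimulated response element (ISRE), while the gamma-activated site (GAS) is bound in the response to interferon gamma. The genes turned on in this way include sensors, which lower the threshold for the next response, and effectors, which block viral entry, translation or replication. Many cells keep a low level of these genes without added interferon.

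Total counts per library were 34685645 and 30631745 in DMSO and 28019956 and 28349721 in dBET1, with 24589 to 28356 genes detected. The labelled cell line was checked against marker genes. Of 5 neutrophil granule genes, which promyelocytes express, ELANE and CTSG had 0 counts in all 4 libraries and MPO had 0 counts in both DMSO libraries. In dBET1, MPO had 22 and 10 counts and was called higher (adjusted p = 0.00459 by edgeR). MPO had enough counts for the test only through dBET1, so for it only a rise could be called. AZU1 had 14 and 14 counts in DMSO and 23 and 15 in dBET1. PRTN3 had 3 and 1 counts in DMSO and 10 and 0 in dBET1. The summed level of the 5 genes was 0.521 to 1.83 CPM (counts scaled to a common library size, which was adjusted by the TMM method). All 11 erythroid markers were expressed in DMSO, with a summed level of 6168 and 7476 CPM in DMSO and 3829 and 3753 CPM in dBET1. Of these, 9 (81.8%) were lower after dBET1 and 0 were higher by edgeR's quasi-likelihood test. Of all genes tested 27.6% were lower, as were 52.1% of those in the highest of 3 bins by mean CPM. The data thus went against a promyelocyte identity, and the libraries are called here by their labels. Of 5 markers of plasmacytoid dendritic cells, which are strong interferon producers, CLEC4C, LILRA4 and GZMB had 0 counts in every library, while TCF4 (35.5 and 27.2 CPM in DMSO) and IL3RA (5 and 7 counts in DMSO) were expressed or detected and both were higher after dBET1, with log2 fold changes of 0.38 and 2.34. Over all genes tested 28.0% were higher. IL3RA had enough counts for the test only through dBET1, so for it only a rise could be called. The 5 plasmacytoid markers summed to 27.5 to 35.6 CPM in DMSO and 41.6 to 42.3 CPM in dBET1. The 8 monocyte and macrophage markers summed to 35.6 and 40.7 CPM in DMSO and 19.6 and 22.8 CPM in dBET1, and their members moved in both directions. CD68 and LYZ, which made up most of the sum, were lower. The low genes CD14, CSF1R and MRC1 (18 counts or fewer in each DMSO library) were higher, with log2 fold changes of 1.23, 2.01 and 4.76. CSF1R and MRC1, like MPO, had enough counts for the test only through dBET1, so for them only a rise could be called. The 8 lymphocyte markers summed to 30.5 and 35.0 CPM in DMSO and 14.3 and 14.6 CPM in dBET1, which was mostly CD3D, the 1 gene of the 4 tested that was called, as lower. The part that these marker changes had in the results below was not tested. In bulk RNA, fewer cells of a kind and less RNA per cell cannot be told apart.

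The promoters of the module were read first, because they show what its members share in sequence. RefSeq promoter windows (GRCh38.p14, 250 bases before to 50 bases after each annotated start) were matched for 31 of the 43 genes. They were searched on both strands for the ISRE core, GAAANNGAAA (TTTCNNTTTC on the other strand), and for the GAS, TTCNNNGAA, where N is any base. The stretches below carry ISRE cores in members that went on to behave differently from one another: MX1 and IFI44 were at 0 counts in every library, IFIT1 had a few counts, ISG15 did not pass the test, OAS3 and IFI6 were higher after dBET1, and IFITM1 and BST2 were lower. Each is written 5′ to 3′ on the strand of its gene, with ISRE cores in capitals.
MX1: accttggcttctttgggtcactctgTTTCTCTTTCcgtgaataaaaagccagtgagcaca
IFI44: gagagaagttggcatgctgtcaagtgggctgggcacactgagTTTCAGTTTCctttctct
IFIT1: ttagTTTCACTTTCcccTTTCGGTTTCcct
ISG15: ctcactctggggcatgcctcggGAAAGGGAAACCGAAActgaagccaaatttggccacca
OAS3: agaaagaaacGAAACTGAAAgcagggaatt
IFI6: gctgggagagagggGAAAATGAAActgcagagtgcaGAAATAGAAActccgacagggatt
IFITM1: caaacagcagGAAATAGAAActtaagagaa
BST2: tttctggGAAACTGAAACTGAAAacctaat

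These stretches lie at chr21:41431829-41431888 (MX1, plus strand, upstream of start number 3 of 3 listed), chr1:78649729-78649788 (IFI44, plus strand), chr10:89392503-89392532 (IFIT1, plus strand), chr1:1013362-1013421 (ISG15, plus strand), chr12:112938321-112938350 (OAS3, plus strand), chr1:27672262-27672321 (IFI6, minus strand), chr11:313990-314019 (IFITM1, plus strand) and chr19:17405738-17405767 (BST2, minus strand). All are upstream of the RefSeq start used. By GENCODE release 44, the ISG15 and MX1 stretches lie in introns of longer transcripts of the same genes. The 60 bases around the printed IFIT1, OAS3 and IFITM1 stretches overlap exons of longer transcripts of those genes, and those around the BST2 stretch overlap exons of its neighbours BISPR and MVB12A. In ISG15 and BST2 a pair of cores overlapped by 4 bases, so that GAAA occurred 3 times in a row at a fixed spacing.

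An ISRE core was found in the promoters of 19 of the 31 matched members (61.3%), against 4.38% of 27305 genes in the promoter table with any start counted and 3.57% of 35116 promoters. A GAS was found in 8 of 31 members (25.8%), against 9.38% of those genes and 7.66% of promoters. In IFITM1, BST2, IFI27 and MX1 a GAS overlapped an ISRE core. The ISRE core was found among members of every response. It was present in 4 of 6 matched members with 0 counts in every library, in 4 of 11 that were higher after dBET1 (IFI6, OAS3, DTX3L and TRIM21), in both matched members that were lower and in 8 of 11 that did not pass the test. Of the 46 matched genes on a list of other interferon-stimulated genes, 28 (60.9%) held the core. A match is a description of letters and not evidence of binding, and the 12 members with no promoter in the table, among them IRF7 and GBP2, were not examined.

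**Figure D1:**
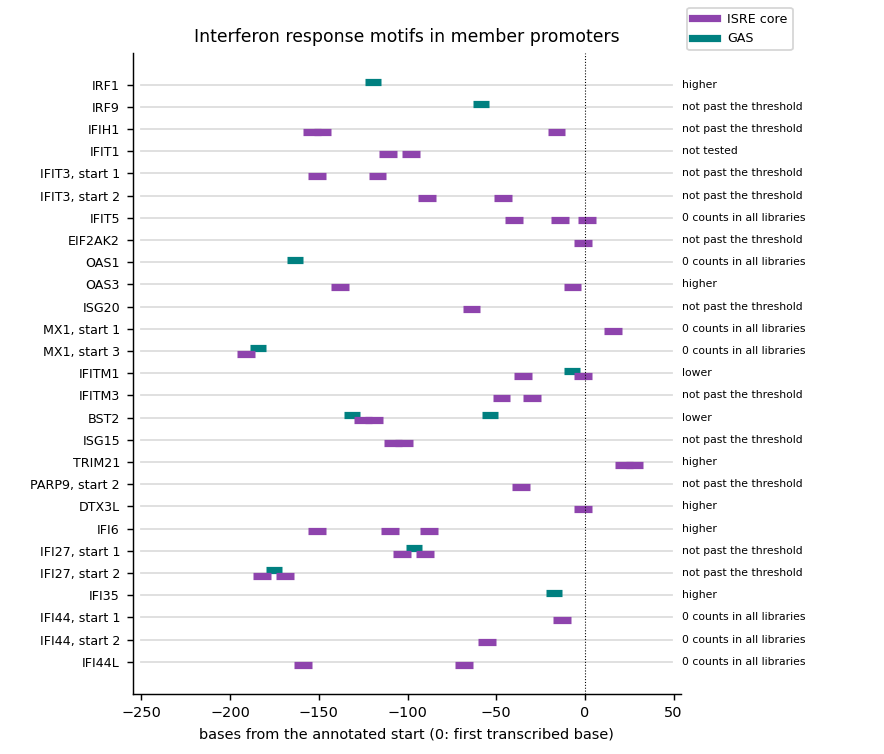
Position of each ISRE core (purple) and GAS (green) in the promoter windows of members with at least 1 match, in bases from the annotated start (0 is the first transcribed base); rows are genes, with the start numbered where several are listed and the call after dBET1 at the right. Most cores lie before the start, and rows with 0 counts in all libraries carry them as well as rows called higher or lower.

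In DMSO, the module was split between genes with a clear level and genes with no counts. A level of at least 1 CPM in both DMSO libraries was reached by 24 of 43 members: all 4 receptors, 5 of 6 transcription factors, 2 of 3 sensors, 3 of 11 RNA-acting effectors, 0 of 3 GTPases, all 4 membrane effectors, 5 of 6 genes of the ISG15 and ubiquitin system and 1 of 6 others. A further 7 members were below that level (IRF7, IFI16, IFIT2, ISG20, TRIM22, IFI6 and IFI27). The other 12 had 0 to 3 counts per DMSO library, and for 9 of them no library held any count: IFIT5, OAS1, OAS2, OASL, MX1, MX2, IFI44, IFI44L and XAF1. A count of 0 allows up to 3 counts, or 0.0919 to 0.107 CPM in a library, so these genes were not detectable at this depth in either group.

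Levels were compared between genes only per length of merged exon, in TPM, a scale on which the genes of each library have the same sum. BST2, a membrane protein that tethers budding virus to the cell, had the highest mean level in DMSO at 448 ± 28.4 TPM (SD, n = 2), followed by IFITM1 at 373 ± 29.1 TPM. IRF3 (81.5 ± 7.12 TPM) and ADAR (76.4 ± 11.3 TPM) came next and differed by less than their SDs. IFITM2 (53.8 ± 6.81 TPM) and ISG15 (46.3 ± 6.93 TPM) followed, and the gap between them was close to 1 SD. EIF2AK2 was at 19.5 ± 2.57 TPM, STAT2 at 10.5 TPM and IRF7 at 1.19 ± 0.395 TPM. BST2, IFITM1 and IRF3 held 75.2% of the module's summed TPM in DMSO. After dBET1 the 3 highest were BST2 at 242 ± 4.38 TPM, IFITM1 at 180 ± 6.37 TPM and ADAR at 85.0 ± 0.180 TPM, which held 58.8%.

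**Figure D2:**
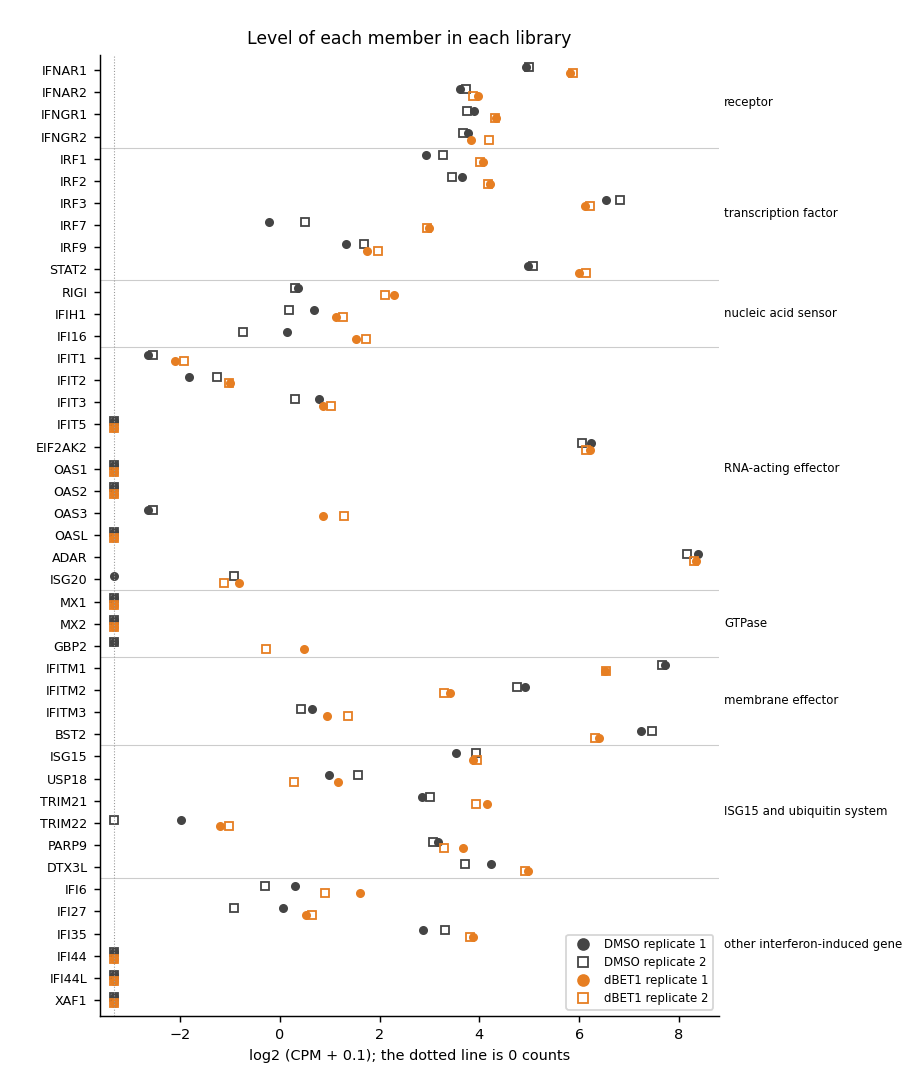
Level of each of the 43 members in each library, as log2 of CPM plus 0.1, grouped by role; filled circles are replicate 1 and open squares replicate 2 of DMSO (dark) and dBET1 (orange), and the dotted line marks 0 counts. The 9 members at 0 in all 4 libraries sit on the dotted line, IRF7, OAS3 and GBP2 stand to the right in dBET1, and IFITM1, IFITM2 and BST2 stand to the left.

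With dBET1, more members rose than fell, yet the summed level of the module did not rise. Of 33 members with enough counts to test, 14 were higher and 4 lower at an adjusted p under 0.05 (edgeR, Benjamini-Hochberg over all 17971 genes tested), and 15 did not pass. That is 42.4% of tested members higher and 12.1% lower, where the background over all genes tested was 28.0% higher (5038 genes) and 27.6% lower (4953 genes). With the added limit of a log2 fold change beyond 1 in size, 8 members were higher and 3 lower, and the background was 16.9% higher and 8.54% lower. The median log2 fold change was 0.67 over tested members and 0.048 over all genes tested, and 28 of 33 members had a positive value. OAS3, GBP2, IFIT2 and TRIM22 are in these counts but passed the count filter only through their dBET1 counts, so for them only a rise could be called. ISG20, with 0 counts in DMSO replicate 1, also needed its dBET1 counts to pass. All of these are among the members with a positive value. With at least 10 counts required in every library, which leaves all of them out, 14 members were higher and 4 lower. The medians were then 0.64 over members and 0.019 over all genes tested. The summed level was 1081 and 1063 CPM in DMSO and 983 and 976 CPM in dBET1. ADAR, the member with the highest CPM, had a log2 fold change of 0.048, and the next in DMSO (IFITM1, BST2 and IRF3) fell. These are descriptions of a named list and carry no test of the list itself.

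The change depended on abundance in all genes, so members were also set beside genes of like level. Genes tested were divided into 3 bins by mean CPM. Among the 5990 genes of the lowest bin, the median log2 fold change was 0.75 and 35.5% were higher and 6.28% lower; of the 14 members there, 5 were higher and 0 lower, with a median of 1.01. In the middle bin (5990 genes), the median was 0.052, with 30.4% higher and 24.3% lower, and of 12 members 7 were higher and 1 lower, with a median of 0.57. In the highest bin (5991 genes), the median was -0.29, with 18.3% higher and 52.1% lower, and of 7 members 2 were higher and 3 lower, with a median of 0.022. The shift toward higher values was therefore nearest to that of all genes in the lowest bin (a median of 1.01 against 0.75) and farther from it in the middle bin (0.57 against 0.052). The lowest bin holds OAS3, GBP2, IFIT2, TRIM22 and ISG20, which needed their dBET1 counts to pass the count filter. Whether members differed from other genes of like level was not tested.

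**Figure D3:**
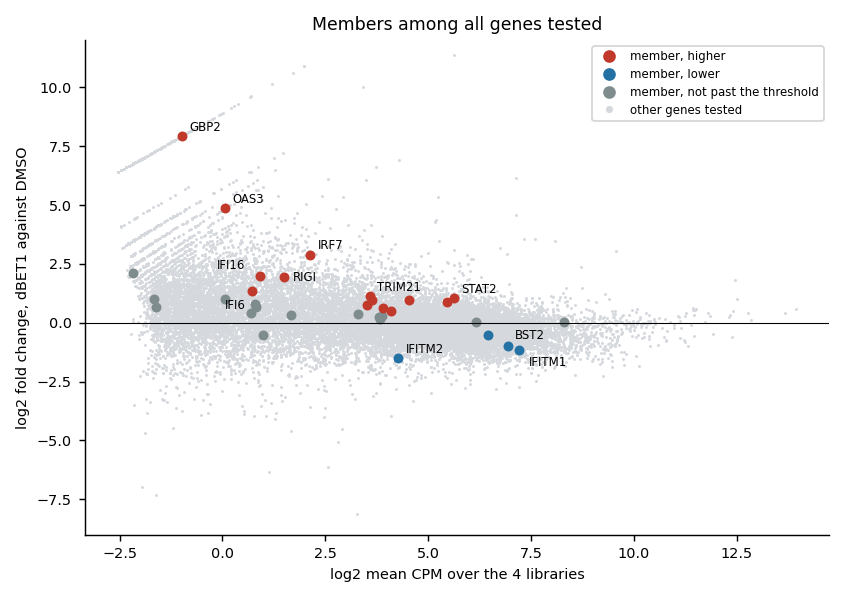
Log2 fold change of each tested gene against log2 of its mean CPM over the 4 libraries, with other genes in grey and members in colour by call; members past both limits are named. Low genes lean upward and high genes downward. The called members run from GBP2 (7.94, with 0 counts in DMSO) at the left to IFITM1 at -1.16 at the right. IFNAR1 and STAT2, in the highest bin, were higher.

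Among the receptors, IFNAR1, the type I interferon receptor chain that carries TYK2, had 30.4 and 31.6 CPM in DMSO and 56.0 and 58.3 CPM in dBET1. Both dBET1 values were above both DMSO values, and the log2 fold change was 0.88 ± 0.0902 (SE), with an adjusted p of 0.000145 by edgeR. IFNGR1, the ligand-binding chain for interferon gamma, had 14.8 and 13.4 CPM in DMSO against 20.2 and 19.8 CPM in dBET1, a log2 fold change of 0.50 with an adjusted p of 0.0129 by edgeR. That call was lost without dBET1 replicate 1 (adjusted p = 0.0967) and without dBET1 replicate 2 (adjusted p = 0.0804). Their partner chains did not pass the test, with log2 fold changes of 0.26 for IFNAR2 and 0.31 for IFNGR2. All 4 receptor chains were thus expressed in DMSO, and 2 of 4 were higher after dBET1, beside 28.0% over all genes tested. IFNAR1 was in the highest abundance bin, where 18.3% of genes were higher, and the other chains in the middle bin (30.4%). Whether the receptor chains differed from genes of like level was not tested.

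Of the 6 transcription factors, 5 were expressed in DMSO and 4 were higher after dBET1 (66.7%, beside 28.0% over all genes tested). STAT2, the transactivating subunit of ISGF3, had 31.3 and 33.4 CPM in DMSO and 63.7 and 70.2 CPM in dBET1. The groups did not overlap, and the log2 fold change was 1.05 ± 0.0965 with an adjusted p of 8.85e-05 by edgeR, a value near the fold limit that ranged from 0.96 to 1.26 over the alternatives. IRF9, which gives ISGF3 its DNA contact, had 2.42 and 3.13 CPM in DMSO and 3.27 and 3.80 CPM in dBET1, and its log2 fold change of 0.35 ± 0.262 had an adjusted p of 0.284 by edgeR. A readthrough gene on the same strand overlaps 23.9% of the IRF9 exons and had 454 to 556 counts, so the IRF9 counts depend on how shared reads were assigned.

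IRF7, the factor that drives the main wave of interferon alpha genes, rose most among the transcription factors. It had 25 and 37 counts in DMSO and 236 and 232 counts in dBET1, or 0.766, 1.32, 7.86 and 7.60 CPM. Both dBET1 libraries lay above both DMSO libraries, with a log2 fold change of 2.90 ± 0.299 and an adjusted p of 0.000152 by edgeR. IRF1, which activates many interferon gamma targets, had 7.48 and 9.50 CPM in DMSO and 16.8 and 16.1 CPM in dBET1, a log2 fold change of 0.96 ± 0.169 with an adjusted p of 0.00215 by edgeR. Both libraries treated with dBET1 were the higher ones, and the antisense gene IRF1-AS1, which shares 22.9% of the IRF1 exons, had 25 and 34 counts in DMSO and 45 and 55 in dBET1. IRF2, an antagonist of IRF1, had a log2 fold change of 0.64 with an adjusted p of 0.00663 by edgeR, and its call was lost without dBET1 replicate 1 (adjusted p = 0.0510).

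IRF3, the constitutive factor that first switches on interferon beta, moved the other way. Its level was 93.0 and 112 CPM in DMSO and 69.3 and 74.4 CPM in dBET1. The groups did not overlap, and the log2 fold change was -0.51 ± 0.107 with an adjusted p of 0.00465 by edgeR. BCL2L12, on the opposite strand, shares 19.3% of the IRF3 exons and also had fewer counts in dBET1 (3437 and 3390 against 2523 and 2448). Since the strand setting of the counting is not given in the sources used here, reads from the pair cannot be told apart where they overlap. Summed over the 5 IRFs, the level was 116 and 137 CPM in DMSO and 116 and 120 CPM in dBET1, because IRF3 made up most of the sum.

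The nucleic acid sensors were low in DMSO, and 2 of 3 (RIGI and IFI16) rose. That is 66.7%, beside 28.0% over all genes tested and 35.5% in the lowest bin, which holds all 3. RIGI, which senses viral RNA ends, had 1.20 and 1.14 CPM in DMSO and 4.76 and 4.19 CPM in dBET1. The groups stood well apart, with a log2 fold change of 1.94 ± 0.264 and an adjusted p of 0.000598 by edgeR. IFI16, a sensor of DNA, had 33 and 14 counts in DMSO and 84 and 98 counts in dBET1, a log2 fold change of 1.97 ± 0.381 with an adjusted p of 0.00326 by edgeR. It was above 1 CPM in only 1 of the DMSO libraries, and in both dBET1 libraries. IFIH1, which senses long double-stranded RNA, had 49 and 29 counts in DMSO and 63 and 70 in dBET1, and its log2 fold change of 0.79 did not pass the test (adjusted p = 0.0691 by edgeR). It passed without DMSO replicate 1 (adjusted p = 0.0346).

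Of the 11 effectors that act on RNA, 4 had 0 counts in every library. Of the 6 tested, 1 was higher (16.7%, beside 28.0% over all genes tested). OAS3, which makes the second messenger that activates RNase L, had 2 counts in each DMSO library and 52 and 71 counts in dBET1. The dBET1 libraries were both far above the DMSO libraries, with a log2 fold change of 4.86 ± 0.510 and an adjusted p of 0.000165 by edgeR. The ratio of summed counts was 30.8, with an exact 95% interval of 11.7 to 115 that covers counting error only. Its relatives OAS1, OAS2 and OASL had 0 counts in all 4 libraries. OAS3 was thus the only OAS gene of the module that was detected. It was below 1 CPM in DMSO and reached 0.367 TPM in dBET1.

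The IFIT proteins, which bind viral RNA and block its translation, stayed low in both groups. IFIT1 had 2 and 2 counts in DMSO and 4 and 5 in dBET1 and was too low to test, and IFIT5 had 0 counts throughout. IFIT2 (6, 9, 12 and 12 counts) and IFIT3 (53, 32, 52 and 59 counts) did not pass the test, with adjusted p of 0.341 and 0.321 by edgeR. The exonuclease ISG20 had 0 and 12 counts in DMSO and 14 and 11 in dBET1, so that its log2 fold change of 1.01 turned on a single library; it became 6.69, past the threshold, without DMSO replicate 2, and -0.07 without DMSO replicate 1.

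ADAR and EIF2AK2 were the abundant members of this group and moved little. ADAR, which edits adenosine to inosine in double-stranded RNA, had 331 and 286 CPM in DMSO and 323 and 315 CPM in dBET1. The dBET1 values lay between the DMSO values, and the log2 fold change was 0.048 ± 0.0858 with an adjusted p of 0.657 by edgeR. EIF2AK2, the kinase PKR that stops translation on sensing double-stranded RNA, had 75.5 and 66.8 CPM in DMSO and 73.9 and 70.6 CPM in dBET1, a log2 fold change of 0.022. For both genes a difference was not detectable beyond the spread of the DMSO libraries.

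Of the 3 GTPases, MX1 and MX2, which trap viral nucleocapsids, had 0 counts in all 4 libraries. GBP2, an interferon gamma-induced GTPase that coats pathogen vacuoles, had 0 counts in both DMSO libraries and 39 and 22 counts in dBET1. Against 3 counts over the DMSO group, that is at least 20.4-fold higher, and the adjusted p was 0.00113 by edgeR. The fitted log2 fold change of 7.94 depends on the prior count and is not a bound.

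The membrane effectors, which include the 2 members with the highest TPM, were the only role with more members lower than higher. Of the 4 genes, 3 were lower (75.0%), beside 27.6% over all genes tested. IFITM1 and BST2 were in the highest abundance bin, where 52.1% of genes were lower, IFITM2 in the middle bin (24.3%) and IFITM3 in the lowest (6.28%). Whether they fell more than genes of like level was not tested. The summed level of the 4 genes went from 393 and 405 CPM in DMSO to 187 and 185 CPM in dBET1. IFITM1, which blocks viral fusion at the cell surface, had 210 and 201 CPM in DMSO and 91.0 and 92.9 CPM in dBET1. The groups did not overlap, and the log2 fold change was -1.16 ± 0.0743 with an adjusted p of 2.09e-05 by edgeR. IFITM2, its relative in endosomes, had 30.2 and 26.9 CPM in DMSO and 10.6 and 9.63 CPM in dBET1, a log2 fold change of -1.50 ± 0.134 with an adjusted p of 7.86e-05 by edgeR. BST2 had 151 and 176 CPM in DMSO and 84.0 and 79.5 CPM in dBET1, a log2 fold change of -1.0 ± 0.0952 with an adjusted p of 0.000103 by edgeR. Every dBET1 library was below every DMSO library for these 3 genes. With library sizes set by total counts only, the values for IFITM1 and BST2 were -0.95 and -0.79, lower than in DMSO but inside the fold limit. BST2 lay on that limit. Past it, 2 members instead of 3 were lower with at least 10 counts required in every library, with counts divided by 2 and with a replicate block. The same held without DMSO replicate 2 and without dBET1 replicate 2.

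IFITM3, the best known member of the IFITM family, was low and did not follow its neighbours. It had 48 and 35 counts in DMSO and 55 and 76 in dBET1, a log2 fold change of 0.67 ± 0.316 with an adjusted p of 0.108 by edgeR. The groups did not overlap, and the value passed the test with total counts only (adjusted p = 0.0448). The IFITM genes are near-identical copies in a cluster on chromosome 11, so their separate counts are uncertain where reads fit more than 1 copy. Summed over the 3 genes, which does not depend on that split, the level was 242 and 229 CPM in DMSO and 103 and 105 CPM in dBET1, a log2 ratio of -1.18.

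In the ISG15 and ubiquitin system, 2 of 6 genes rose (33.3%). That share was close to the 28.0% over all genes tested and is not a result about the role. ISG15, a ubiquitin-like protein that is among the most strongly interferon-induced genes in most cells, had 11.5 and 15.2 CPM in DMSO and 14.6 and 15.4 CPM in dBET1. The groups overlapped, with a log2 fold change of 0.17 ± 0.170 and an adjusted p of 0.427 by edgeR. USP18, which removes ISG15 and restrains the type I receptor, had 61 and 80 counts in DMSO and 64 and 34 in dBET1, a log2 fold change of -0.53 with an adjusted p of 0.277 by edgeR, and near-identical copies make its counts uncertain. TRIM21, a cytosolic antibody receptor and ubiquitin ligase, had 7.11 and 8.01 CPM in DMSO and 17.7 and 15.1 CPM in dBET1. Again the dBET1 libraries were both higher, with a log2 fold change of 1.12 ± 0.165 and an adjusted p of 0.000891 by edgeR.

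DTX3L and PARP9 act as a ubiquitin ligase and ADP-ribosyltransferase pair and are transcribed away from each other from a shared start region. DTX3L had 18.7 and 13.1 CPM in DMSO and 31.5 and 30.2 CPM in dBET1, a log2 fold change of 0.96 with an adjusted p of 0.00224 by edgeR. PARP9 had 8.86 and 8.29 CPM in DMSO and 12.7 and 9.66 CPM in dBET1, a log2 fold change of 0.38 that did not pass the test (adjusted p = 0.119 by edgeR). Whether the pair differed from each other was not tested. TRIM22, a ubiquitin ligase, had 5 and 0 counts in DMSO and 10 and 12 in dBET1; its log2 fold change of 2.10 did not pass and became 6.43, past the threshold, without DMSO replicate 1.

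Among the remaining interferon-induced genes, IFI6 and IFI35 rose and IFI44, IFI44L and XAF1 had 0 counts throughout. That is 66.7% of the 3 tested, beside 28.0% over all genes tested and 35.5% in the lowest bin, which holds IFI6. IFI6, a small membrane protein induced by type I interferon, had 1.13 and 0.712 CPM in DMSO and 2.93 and 1.77 CPM in dBET1, a log2 fold change of 1.34 ± 0.393 with an adjusted p of 0.0213 by edgeR. Each dBET1 value was above each DMSO value, but the call was lost without DMSO replicate 2 (adjusted p = 0.0632) and without dBET1 replicate 1 (adjusted p = 0.174). IFI35 had 7.26 and 9.86 CPM in DMSO and 14.6 and 14.0 CPM in dBET1, a log2 fold change of 0.74 with an adjusted p of 0.0110 by edgeR, and its call was lost without dBET1 replicate 1 (adjusted p = 0.0501). IFI27 had 31 and 12 counts in DMSO and 40 and 45 in dBET1, a log2 fold change of 1.01 that did not pass (adjusted p = 0.0862 by edgeR) and that passed without DMSO replicate 1 (adjusted p = 0.0171).

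**Figure D4:**
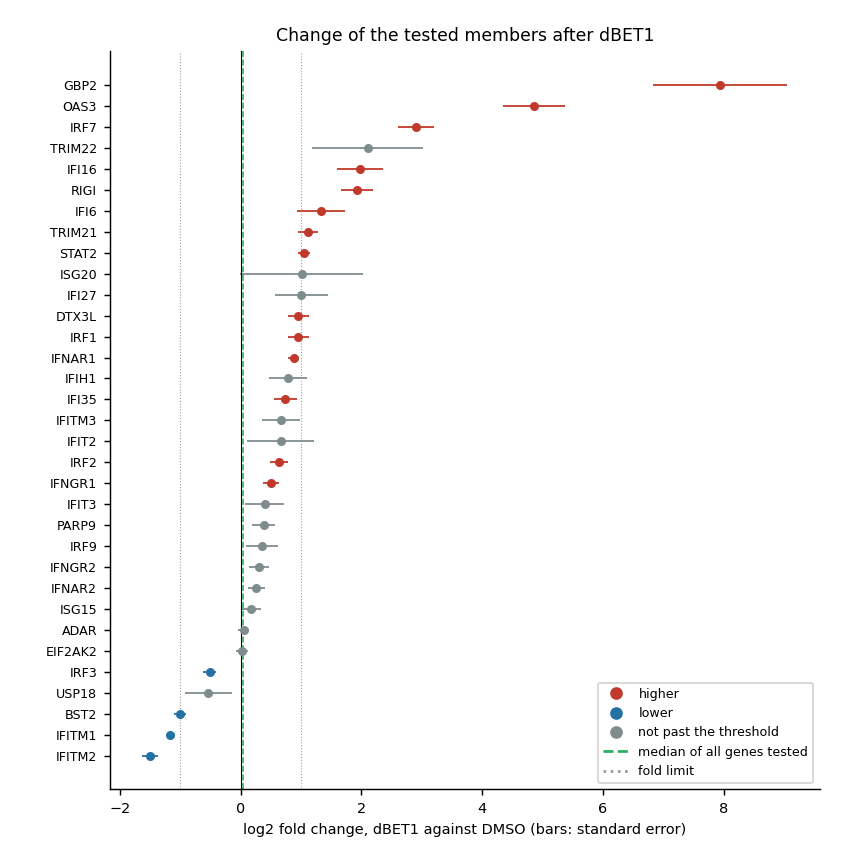
Log2 fold change (dBET1 against DMSO) of the 33 tested members with its standard error, ordered by value; colours give the call, the dashed line the median of all genes tested and the dotted lines the fold limit of 1 in either direction. The 14 members called higher run from IFNGR1 at 0.50 to GBP2 at 7.94, and the 4 called lower are IRF3, BST2, IFITM1 and IFITM2.

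The rest of the pathway was taken from lists of 120 other genes, of which 69 were tested. Of these, 30 were higher (43.5%) and 15 lower (21.7%), with a median log2 fold change of 0.29, beside 28.0% higher, 27.6% lower and a median of 0.048 over all genes tested. No interferon gene reached a measurable level: of 22 ligand genes, 20 had 0 counts in all libraries, including IFNB1 (interferon beta), IFNK had 3 counts in dBET1 replicate 2 and IFNL4 had 1 count in dBET1 replicate 1. The ligands themselves were thus not detectable at this depth in either group.

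Among 18 genes of signalling and its feedback, 6 of 13 tested were higher (46.2%) and 3 lower (23.1%, where the background was 27.6%), with a median of 0.24. SOCS3, a feedback inhibitor of JAK kinases, rose most, from 720 and 703 counts in DMSO to 2205 and 2260 counts in dBET1, a log2 fold change of 1.65 with an adjusted p of 1.64e-05 by edgeR. SOCS1, of the same family, had a log2 fold change of 0.87, and the receptor kinases JAK1 and TYK2 of 0.79 and 0.51. PTPN2 (-0.49), IRF2BP2 (-0.42) and STAT3 (-0.21) were lower, but the falls of all 3 were not called with library sizes set by total counts only (adjusted p of 0.0624, 0.0597 and 0.964 by edgeR). The STAT3 call was also lost without dBET1 replicate 1 (0.231) or replicate 2 (0.227), with at least 10 counts required (0.112) and with counts divided by 2 (0.0542).

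Among 19 adaptors and kinases of nucleic acid sensing, 3 of 12 tested were higher (25.0%) and 4 lower (33.3%), with a median of -0.058. These shares were close to the background of 28.0% and 27.6% and are not a result about the list. The kinase IKBKE (log2 fold change -1.02, adjusted p = 0.00220 by edgeR), the DNA-sensing adaptor STING1 (-0.87, adjusted p = 0.000157) and the TLR3 adaptor TICAM1 (-0.41, adjusted p = 0.0230) were lower. STING1 had 2245 and 2071 counts in DMSO and 1204 and 1161 in dBET1, with no overlap. DHX58, a relative of RIGI, had 12 and 8 counts in DMSO and 41 and 22 in dBET1, a log2 fold change of 1.66 with an adjusted p of 0.0236 by edgeR that was lost without DMSO replicate 2 (0.0759), without dBET1 replicate 1 (0.270), without a filter on low counts (0.0728) and with DESeq2 (0.143). TRAF6 (0.42) and TRIM25 (0.37) were the others that rose. Each lost its call without dBET1 replicate 1 or dBET1 replicate 2, as did TICAM1. The TRAF6 call was also lost without DMSO replicate 2 (adjusted p = 0.142), without a filter (0.12) and with DESeq2 (0.139), that of TRIM25 without a filter (0.0623), and that of TICAM1 with total counts only (0.214).

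Among 61 other interferon-stimulated genes, 21 of 44 tested were higher (47.7%, where the background was 28.0%) and 8 lower (18.2%, where it was 27.6%), with a median of 0.38, and 11 had 0 counts in all libraries. HELZ2, a helicase coactivator, went from 355 and 272 counts in DMSO to 2730 and 2627 counts in dBET1, a log2 fold change of 3.10 with an adjusted p of 2.66e-06 by edgeR. UBA7, the enzyme that activates ISG15, had 15 and 23 counts in DMSO and 162 and 188 in dBET1, a log2 fold change of 3.18 with an adjusted p of 0.000160 by edgeR. TRIM34 had 10 and 0 counts in DMSO and 78 and 96 in dBET1. Its log2 fold change of 4.11 had an adjusted p of 0.00220 by edgeR, but of 0.0774 by DESeq2. TRIM34 and DDX60 (9 and 0 counts in DMSO, 24 and 24 in dBET1) passed the count filter only through their dBET1 counts. For both, which are among the 21 called higher, only a rise could be called. UBA7 thus rose while ISG15 itself, its substrate, did not pass the test, a difference that was itself not tested. The largest falls were of the mitochondrial ribonuclease PNPT1 (-1.20), the lysosomal thiol reductase IFI30 (-1.17) and the tryptophanyl-tRNA synthetase WARS1 (-1.07), with adjusted p of 2.32e-05 to 4.10e-05 by edgeR.

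**Figure D5:**
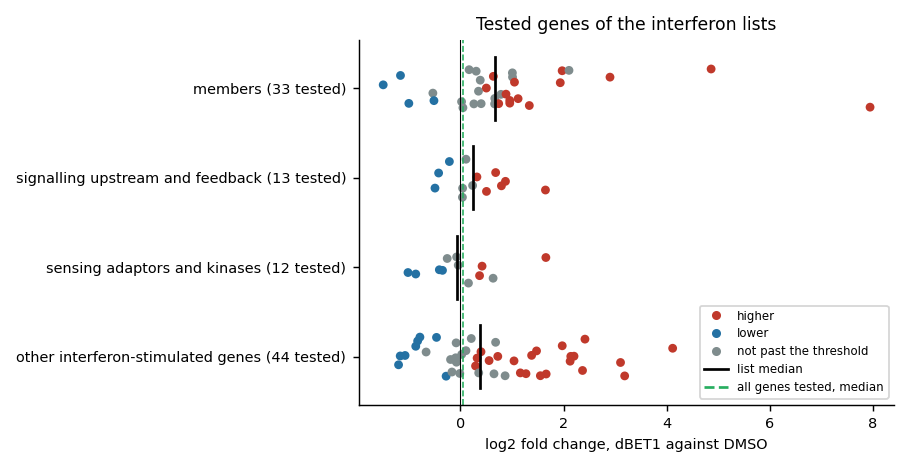
Log2 fold change (dBET1 against DMSO) of each tested gene of the module and of the other interferon lists, coloured by call; black bars are list medians and the dashed line is the median of all genes tested. The module has a median of 0.67, other interferon-stimulated genes 0.38, signalling 0.24 and sensing -0.058, and each list holds genes called in both directions.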

How the data were processed

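RNA of the 4 libraries was sequenced by the authors as paired-end reads. The submitters' processing notes name HISAT2 2.2.0 and hg38, and the study's methods name StringTie for abundance; how abundances became counts, and with which strand setting, is not given in the sources used here. The labels and the study's methods name different RNA extraction kits. The deposited values are raw counts per Ensembl gene. The columns headed NC were taken as DMSO, the only control group in the labels; 0 columns were left out and 0 rows named no gene. Of 64252 gene identifiers, 56105 were found in GENCODE release 44, and the rest held 2.57% of counts.

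Members and lists were chosen with earlier results of these data known. Counts were tested with edgeR 4.0.16 (R 4.3.3, limma 3.58.1): TMM factors (0.918 to 1.08), filterByExpr, quasi-likelihood test by group alone, Benjamini-Hochberg over all 17971 genes that passed. The thresholds were an adjusted p under 0.05 and, as in the study's methods, a log2 fold change beyond 1 in size. The biological coefficient of variation was 0.123. TPM used merged exon lengths and all annotated genes. The members named with full statistics were those past both thresholds and STAT2, IRF1, IRF3, IRF7, IRF9, ISG15, IFIT1, MX1, OAS1, IFITM3 and ADAR. Of the other lists, JAK1, TYK2, IFNB1 and the 3 called genes with the largest change in each direction were named, some by log2 fold change only. DDX60 is named for the count filter. A further gene that the rule names is not reported here. PARP9, DTX3L, IFIH1, IFI27 and further members are given because all were to be accounted for. The procedure was tested on simulated data with few changed genes, placed at random and balanced in direction. That run does not cover a change as wide and as dependent on abundance as here. Promoters were read from a RefSeq table (GRCh38.p14). Alternatives were DESeq2 1.42.0, other scalings and filters, counts divided by 2, a replicate block and each library left out. Counts of replicate libraries spread beyond sampling noise (chi-square per degree of freedom 23.6 in DMSO and 8.14 in dBET1), so none was merged.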

Additional observations from a re-analysis of the deposited data

How the results depend on the processing

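No called member changed direction under any alternative. With library sizes set by total counts only, 1 member instead of 3 was lower past the fold limit, and the median log2 fold change was 0.87 for members (0.67 by TMM) and 0.26 for all genes (0.048 by TMM), so that the gap between the medians was 0.62 either way. Under that scaling the share of calls that were higher went from 50.4% to 65.2% in all genes and from 77.8% to 84.0% in members (past the fold limit, from 66.4% to 80.2% and from 72.7% to 92.3%), other pathway genes that were lower numbered 9 instead of 15, or 0 instead of 4 past the fold limit in edgeR, and all genes lower past the fold limit 952 instead of 1535. Without a filter on low counts, 18 instead of 30 other pathway genes were higher; the cause was not tested. With at least 10 counts required in every library, 1940 instead of 3032 genes were higher past the fold limit, with fewer genes tested. Leaving out 1 library gave 10 to 17 members higher and 4 lower in each case, 6 to 11 higher and 2 to 3 lower past the fold limit, a members' median of 0.52 (without DMSO replicate 2) to 0.70, and 3356 (without dBET1 replicate 2) to 5118 higher and 3777 to 5343 lower genes; where a group was left with 1 library, that library was assumed to vary like the other group. DESeq2 called 13 members higher and 4 lower, and did not call IFI6 (adjusted p = 0.0710). Without a filter on low counts, IFNGR1, IFI6 and IFI35 lost their calls (adjusted p of 0.0522, 0.0859 and 0.0588 by edgeR), and with total counts only IFNAR2, IFNGR2, IFIH1, ADAR, IFITM3, PARP9 and IFI27 gained one.

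Same-numbered libraries did not deviate together (correlation -0.0075). That single value from so few libraries cannot show whether the numbers mark pairs. With the replicate block 14 members were higher and 4 lower, 8 and 2 past the fold limit, and STAT3 was not called (adjusted p = 0.0674 by edgeR). Members that did not pass the test in the main analysis changed sign in 8 cases: EIF2AK2 with DESeq2 (-0.013), without a filter (-0.033), without DMSO replicate 2 (-0.094) and without dBET1 replicate 1 (-0.017), ADAR without a filter (-0.0065) and without DMSO replicate 2 (-0.083), ISG20 (-0.074) and ISG15 (-0.046) without DMSO replicate 1. Over the libraries left out, the values ran up to 0.086 for EIF2AK2, 0.13 for ADAR, 6.69 for ISG20 and 0.35 for ISG15. The fold changes of ISG20 and TRIM22, with 0 to 14 counts a library, turned on which DMSO library was kept.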
